A study of Homo sapiens with 9 samples.

Results

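The Notch receptors, ligands, nuclear factors and targets described here are 10 genes of the 27860 for which a gene level could be formed in RNA-seq data from DU145 cells. The genes were listed by symbol (NOTCH1, NOTCH2, NOTCH3, JAG1, JAG2, RBPJ, MAML1, HES1, HEY1 and NRARP), and the level of each gene was the sum of FPKM (fragment counts scaled to transcript length and to library size) over all its RefSeq transcripts. Of the 10, 8 reached a mean of 1 FPKM over all libraries and entered the test among 12509 genes in all. JAG1 and HEY1 lay under that limit and are given by their values. The labels name DU145, a prostate carcinoma line grown from a brain metastasis, and the genotype WT for all 9 libraries. The study compared cells expressing a scrambled control shRNA (scramble, n = 3) with cells expressing shRNA FZD6 #1 (shRNA1, n = 3) or shRNA FZD6 #2 (shRNA2, n = 3), both directed against FZD6, a Frizzled receptor of the Wnt pathway. All 9 libraries therefore carried an shRNA. The labels call each set of 3 a triplicate without saying whether these were separate cultures or infections, so p-values measure only the spread between these samples, which may be technical. Whether the cells of each group came from 1 clone, and which of the study's lentiviral vectors they carried, is not given in the sources used here.

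Notch receptors are single-pass proteins of the cell surface that are activated by ligands of the Jagged and Delta-like families on a neighbouring cell. Ligand binding leads to cleavage by an ADAM protease and then by gamma-secretase, and the freed intracellular domain enters the nucleus, where it joins the DNA-binding protein RBPJ and a Mastermind-like coactivator such as MAML1. This complex switches on target genes, among them the HES and HEY transcriptional repressors and NRARP, a feedback inhibitor of the receptor complex. In prostate epithelium the pathway is known for its part in the balance between basal and luminal cells, and both growth-promoting and growth-restraining roles have been described in prostate cancer.

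Because RBPJ reads DNA directly, the bases just before the transcription start are shown for both targets in the test and for the 3 genes that were lower with each shRNA. The word searched was TGGGAA, the core of the RBPJ recognition sequence, on both strands, and capitals mark each match. Sequences are from RefSeq on GRCh38.p14, cover the 250 bases before the start and are written in the direction of transcription.
HES1, chr3:194135898-194136147, plus strand: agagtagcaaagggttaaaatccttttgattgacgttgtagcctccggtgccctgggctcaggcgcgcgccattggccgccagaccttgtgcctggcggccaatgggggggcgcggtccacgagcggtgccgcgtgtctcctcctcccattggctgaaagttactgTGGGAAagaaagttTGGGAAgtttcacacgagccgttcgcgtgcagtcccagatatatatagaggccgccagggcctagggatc
NRARP, chr9:137302272-137302521, minus strand: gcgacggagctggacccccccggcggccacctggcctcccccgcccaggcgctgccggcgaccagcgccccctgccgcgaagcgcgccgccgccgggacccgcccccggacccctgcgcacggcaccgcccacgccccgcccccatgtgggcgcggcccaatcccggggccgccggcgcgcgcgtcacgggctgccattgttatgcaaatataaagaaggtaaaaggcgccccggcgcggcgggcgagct
NOTCH1, chr9:136546049-136546298, minus strand: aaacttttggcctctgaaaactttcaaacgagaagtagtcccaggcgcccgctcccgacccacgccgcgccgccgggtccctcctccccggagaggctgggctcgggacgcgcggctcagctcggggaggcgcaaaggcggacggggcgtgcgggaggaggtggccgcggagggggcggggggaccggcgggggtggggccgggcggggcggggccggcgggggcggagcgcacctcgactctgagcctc
NOTCH2, chr1:120069663-120069912, minus strand: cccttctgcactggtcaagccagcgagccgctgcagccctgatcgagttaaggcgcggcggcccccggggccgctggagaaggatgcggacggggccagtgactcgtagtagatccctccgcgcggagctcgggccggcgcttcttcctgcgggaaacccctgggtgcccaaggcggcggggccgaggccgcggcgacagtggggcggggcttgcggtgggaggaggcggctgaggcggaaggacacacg
JAG2, chr14:105168777-105169026, minus strand: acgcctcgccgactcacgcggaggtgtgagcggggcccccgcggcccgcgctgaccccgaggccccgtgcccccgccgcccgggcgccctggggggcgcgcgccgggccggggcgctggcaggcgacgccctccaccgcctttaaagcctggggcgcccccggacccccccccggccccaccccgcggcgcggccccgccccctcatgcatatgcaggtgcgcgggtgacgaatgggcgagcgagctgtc
The HES1 window held the word at 2 places, starting 84 and 70 bases before the transcription start, and the first of them was the longer form GTGGGAA. The NRARP, NOTCH1, NOTCH2 and JAG2 windows held no match, which says only that these letters are not in this window. Of the 13 starts in the table for 9 of the 10 genes, matches were found for HES1 and for 1 of 5 starts of RBPJ. Of all 35116 RefSeq promoter windows of this length, 20.8% held TGGGAA and 5.43% held GTGGGAA, each on either strand. The HES1 window had 59.2% G and C, close to the median of 58.0% over all windows. The other printed windows were richer, with 72.8% in NOTCH2, 76.0% in NOTCH1, 78.4% in NRARP and 81.6% in JAG2.

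The targeted gene was measured first. FZD6 stood at 20.9, 20.5 and 20.04 FPKM in the scramble libraries, at 9.47, 10.2 and 9.80 FPKM with shRNA1, and at 7.84, 8.79 and 7.69 FPKM with shRNA2. The groups did not overlap, and the knockdown means were 47.9% of the scramble mean with shRNA1 and 39.5% with shRNA2. The difference in mean log2(FPKM + 1) between the 6 knockdown and the 3 scramble libraries was -1.12 (p = 0.0119 by exact permutation, two-sided, which 84 arrangements cannot undercut). The 2 shRNAs differed in FZD6 as well, with a log2 change from shRNA1 to shRNA2 of -0.25 ± 0.05 (SE, limma adjusted p = 0.0273), a call that was lost when any of 6 single libraries was left out. The epithelial markers KRT8, KRT18, KRT19, EPCAM and CDH1 were present in all libraries, 5 of 5 at 1 FPKM or more. KLK3 and TMPRSS2, which mark androgen-responsive luminal cells, reached at most 0.0138 and 0.0168 FPKM. Of the 3 leukocyte markers listed, PTPRC and CD3E were at 0 in every library, while CD68, a lysosomal protein not confined to leukocytes, had a median of 21.7 FPKM. None of 3 endothelial, 4 fibroblast and 4 neuroendocrine markers had a median of 1 FPKM or more. The width of the deposited confidence bounds corresponded to about 31.2 to 39.1 M fragments per library (M, mega).

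The 10 genes spanned from 0.17 to 13.8 FPKM. In the scramble cells JAG2 was the most abundant, with 13.5 ± 0.451 FPKM (mean ± SD, n = 3), followed by MAML1 with 8.50 ± 0.220 and RBPJ with 8.48 ± 0.280, whose ranges overlapped. HES1 came next with 5.75 ± 0.205 FPKM, then NRARP with 4.90 ± 0.189, NOTCH2 with 4.46 ± 0.0737, NOTCH3 with 2.94 ± 0.236, NOTCH1 with 2.54 ± 0.0878, JAG1 with 0.845 ± 0.106 and HEY1 with 0.218 ± 0.0345. From RBPJ downward the ranges of neighbouring genes in this order did not overlap. In the knockdown cells the mean of RBPJ lay above that of MAML1, again with overlapping ranges, and the order was otherwise that of scramble. The ranges of NOTCH3 and NOTCH1 overlapped with shRNA1, and those of NOTCH2 and NOTCH3 as well as HES1 and NRARP overlapped with shRNA2. Since FPKM is a level per length, these comparisons between genes are on the level scale. In bulk RNA, fewer cells expressing a gene and less RNA per cell cannot be told apart.

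**Figure D1:**
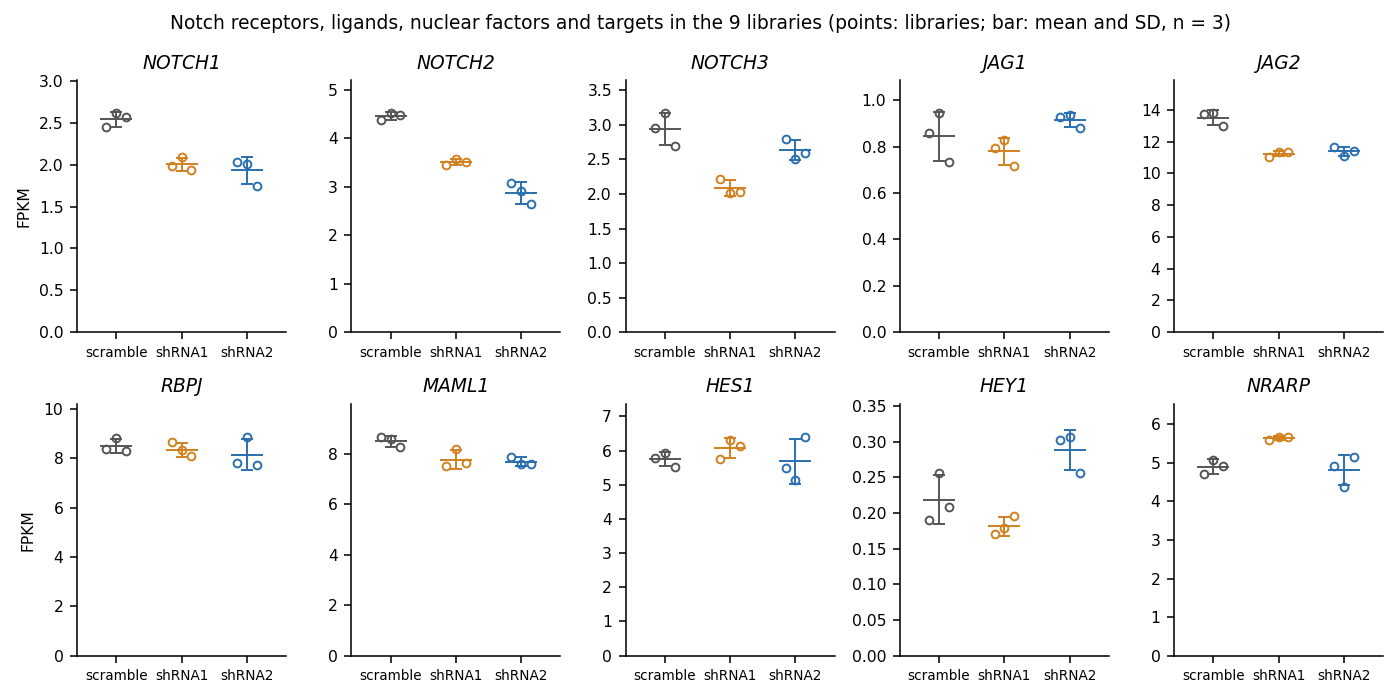
FPKM of each of the 10 genes (vertical axis, from 0) in the scramble, shRNA1 and shRNA2 libraries. Open circles are single libraries, and bars give the mean and SD (n = 3). NOTCH1, NOTCH2 and JAG2 lie lower in all 6 knockdown libraries than in the 3 scramble libraries, while NOTCH3 is lowest with shRNA1.

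Among the receptors, NOTCH1 and NOTCH2 were lower with both shRNAs, and NOTCH3 was lower with shRNA1. NOTCH1 (chromosome 9, 136494433 to 136546048) stood at 2.44, 2.62 and 2.56 FPKM in the scramble libraries, at 1.98, 2.09 and 1.94 with shRNA1 and at 2.04, 2.01 and 1.75 with shRNA2. Every knockdown library lay under every scramble library, while the shRNA1 and shRNA2 ranges overlapped. The log2 fold change, on the log2(FPKM + 1) scale used throughout, was -0.24 ± 0.04 (SE) with shRNA1 (limma, adjusted p = 0.0128) and -0.27 ± 0.04 with shRNA2 (adjusted p = 0.00542). The shRNA1 call was narrowly lost without scramble replicate 2 (adjusted p = 0.0503) or without shRNA1 replicate 3 (adjusted p = 0.0533). Between the shRNAs the difference was -0.04, with a 95% interval from -0.14 to 0.07.

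NOTCH2 fell the most of the 8 tested genes when both knockdowns were pooled. The gene (chromosome 1, 119911553 to 120069662) stood at 4.38, 4.52 and 4.49 FPKM in the scramble libraries, at 3.44, 3.57 and 3.50 with shRNA1 and at 3.08, 2.91 and 2.64 with shRNA2. None of the 3 groups overlapped with another. The mean was 78.6% of scramble with shRNA1 and 64.5% with shRNA2. The log2 fold change was -0.28 ± 0.04 with shRNA1 (limma, adjusted p = 0.00756) and -0.50 ± 0.04 with shRNA2 (adjusted p = 0.000585). The difference between shRNA2 and shRNA1 was itself called, at -0.22 ± 0.04 (adjusted p = 0.0235). That call was lost without any 1 of the 3 shRNA1 libraries (adjusted p = 0.0712, 0.0879 and 0.0824). NOTCH2 has near-identical partial copies, the NOTCH2NL genes of the same chromosome, to which part of its reads could be assigned. NOTCH2NLA ranged from 0.668 to 0.828 FPKM, NOTCH2NLB from 0.388 to 0.478 and NOTCH2NLC from 1.05 to 1.27 over the 9 libraries. Each of these copies overlapped between scramble and both knockdown groups.

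NOTCH3 differed between the 2 shRNAs. Its level (chromosome 19, 15159038 to 15200995) was 2.95, 3.17 and 2.70 FPKM in scramble, 2.21, 2.01 and 2.02 with shRNA1 and 2.80, 2.51 and 2.597 with shRNA2. The shRNA1 libraries were under all others, whereas shRNA2 overlapped with scramble. The log2 fold change was -0.35 ± 0.05 with shRNA1 (limma, adjusted p = 0.00754) and -0.12 with shRNA2, with a 95% interval from -0.24 to 0.01 (adjusted p = 0.146). The test of shRNA2 against shRNA1 gave 0.24 ± 0.05 (adjusted p = 0.0403). Leaving out any of 6 libraries (scramble replicate 1, each shRNA1 library, shRNA2 replicate 1 or shRNA2 replicate 3) ended that call, with adjusted p between 0.0689 and 0.132. Pooled over both shRNAs, NOTCH3 changed by -0.23 ± 0.08 (adjusted p = 0.0772), and it was called without shRNA2 replicate 1 (adjusted p = 0.0410). With the pooled knockdown mean taken in the model with 3 groups, the same change had an SE of 0.05 and was called (limma, adjusted p = 0.00974).

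The sum of the 3 receptors was 9.94 ± 0.314 FPKM in scramble, 7.59 ± 0.113 with shRNA1 and 7.44 ± 0.467 with shRNA2. The make-up of that sum differed between the groups. NOTCH2 held 43.8% to 46.0% of it in scramble, 45.1% to 46.9% with shRNA1 and 37.8% to 39.2% with shRNA2. NOTCH3 held 27.7% to 30.8% in scramble, 26.2% to 28.99% with shRNA1 and 33.8% to 37.2% with shRNA2. The shRNA2 libraries lay apart from both other groups in these shares, while the share of NOTCH1 (25.02% to 27.3%) overlapped in all 3. These shares follow from the receptor levels above and were not tested.

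Of the ligands, JAG2 was lower with both shRNAs and JAG1 was too low to be tested. JAG2 (chromosome 14, 105140995 to 105168776) stood at 13.8, 13.8 and 13.0 FPKM in scramble, at 11.1, 11.4 and 11.3 with shRNA1 and at 11.7, 11.1 and 11.4 with shRNA2. All 6 knockdown libraries lay under the 3 scramble libraries. The log2 fold change was -0.24 ± 0.03 with shRNA1 (limma, adjusted p = 0.00511) and -0.23 ± 0.03 with shRNA2 (adjusted p = 0.00312), and the shRNAs differed by 0.02 (95% interval -0.06 to 0.09). JAG1 (chromosome 20, 10637684 to 10673999) was at 0.857, 0.945 and 0.733 FPKM in scramble, at 0.796, 0.828 and 0.715 with shRNA1 and at 0.928, 0.938 and 0.881 with shRNA2. Its scramble range overlapped with both knockdown ranges. JAG2 made up 92.2% to 94.7% of the 2 ligands in every library, and the ratio of JAG2 to JAG1 was 14.6 to 17.7 in scramble, 13.7 to 15.8 with shRNA1 and 11.9 to 12.9 with shRNA2, the last range lying under the other two. When the filter on low values was dropped, JAG1 changed by 0.00 against scramble with both shRNAs pooled (95% interval -0.11 to 0.11). The pooled value averages -0.05 with shRNA1 and 0.06 with shRNA2, neither of them called. From shRNA1 to shRNA2 the change was 0.11 (95% interval 0.003 to 0.21), which was not called (limma, adjusted p = 0.284).

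Of the nuclear factors, MAML1 was slightly lower in the knockdown cells and RBPJ showed no called change. MAML1 (chromosome 5, 179732822 to 179777283), the coactivator, was at 8.68, 8.57 and 8.26 FPKM in scramble, at 7.49, 8.18 and 7.63 with shRNA1 and at 7.89, 7.60 and 7.58 with shRNA2. The highest shRNA1 library lay just under the lowest scramble library. The log2 fold change over both shRNAs was -0.12 ± 0.03 (limma, adjusted p = 0.0281), a call lost without scramble replicate 1 (adjusted p = 0.110), scramble replicate 2 (0.1002), shRNA1 replicate 3 (0.0538) or shRNA2 replicate 3 (0.0503). With shRNA1 alone the value was -0.12 (adjusted p = 0.0646) and with shRNA2 alone -0.13 (adjusted p = 0.0372). The shRNA2 call was lost on leaving out any of 6 libraries, with adjusted p of at most 0.109 among these. RBPJ (chromosome 4, 26105449 to 26435131), the DNA-binding partner of the receptors, was at 8.37, 8.80 and 8.28 FPKM in scramble, at 8.64, 8.32 and 8.08 with shRNA1 and at 7.82, 8.88 and 7.74 with shRNA2. These groups overlapped, and the pooled log2 fold change was -0.04 with a 95% interval from -0.14 to 0.06.

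Neither of the 2 tested target genes was called against scramble. Both have much shorter transcripts than the receptors, so the length trend described below bears on any contrast with them. With that trend removed, the median log2 fold change of the 2 targets was 0.04 with shRNA1 and -0.09 with shRNA2. The 3 receptors then had medians of -0.10 and -0.16. HES1 (chromosome 3, 194136148 to 194138732), the repressor whose upstream bases hold the RBPJ word, was at 5.78, 5.94 and 5.53 FPKM in scramble, at 5.75, 6.32 and 6.13 with shRNA1 and at 5.49, 5.15 and 6.41 with shRNA2. All groups overlapped. Its log2 fold change was 0.07 with shRNA1 (95% interval -0.09 to 0.23) and -0.02 with shRNA2 (95% interval -0.18 to 0.14), and neither was called. NRARP (chromosome 9, 137299631 to 137302271), the feedback inhibitor, was at 4.70, 5.08 and 4.92 FPKM in scramble, at 5.59, 5.68 and 5.67 with shRNA1 and at 4.92, 4.38 and 5.15 with shRNA2. The shRNA1 libraries lay above all others, while shRNA2 overlapped with scramble. NRARP missed the threshold narrowly with shRNA1, at 0.17 ± 0.05 (limma, adjusted p = 0.0507), and passed it without shRNA2 replicate 2 (adjusted p = 0.0101) or replicate 3 (adjusted p = 0.0365). With shRNA2 the change was -0.02 (95% interval -0.14 to 0.10), and shRNA2 against shRNA1 gave -0.19 ± 0.05 (adjusted p = 0.0636).

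HEY1, a repressor related to HES1, was the least abundant of the 10 genes. It was at 0.190, 0.257 and 0.209 FPKM in scramble, at 0.170, 0.179 and 0.195 with shRNA1 and at 0.303, 0.307 and 0.257 with shRNA2. The shRNA2 libraries lay above those of shRNA1. With the filter on low values dropped, shRNA2 against shRNA1 gave 0.13 ± 0.02 (limma, adjusted p = 0.0422 over 21356 genes), and the changes against scramble were -0.04 with shRNA1 and 0.08 with shRNA2, neither of them called. This call rests on levels of at most 0.307 FPKM, under the limit of 1 FPKM set for the main test. FPKM + 1 also compresses differences at so low a level.

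**Figure D2:**
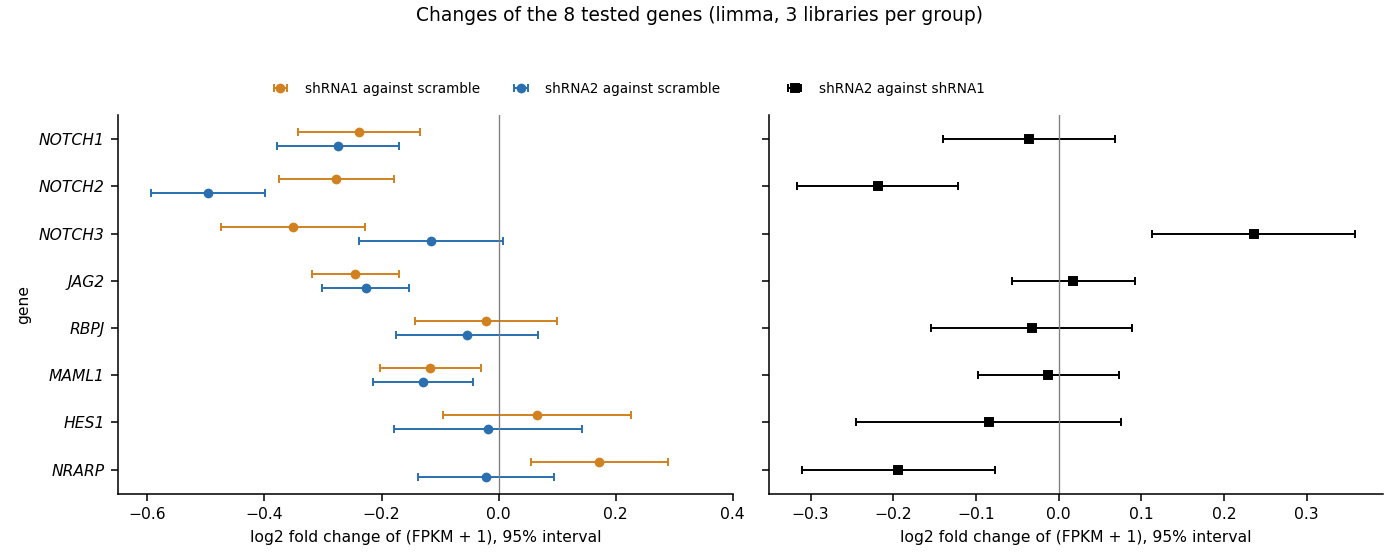
Log2 fold change of (FPKM + 1) with its 95% interval (horizontal axis) for the 8 tested genes, for each shRNA against scramble (left) and for shRNA2 against shRNA1 (right). NOTCH1, NOTCH2 and JAG2 lie below 0 with both shRNAs, and NOTCH2 (-0.22) and NOTCH3 (0.24) lie on opposite sides of 0 in the right panel.

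Counted over the list, 4 of the 8 tested genes were called lower and 0 higher with both shRNAs pooled, at an adjusted p under 0.05. The pooled test called 7.10% of all tested genes lower and 13.5% higher. The 4 called genes also showed no overlap between the 6 knockdown and the 3 scramble libraries, as did 25.9% of all tested genes. With shRNA1, 4 of 8 were called lower (NOTCH1, NOTCH2, NOTCH3 and JAG2) against 7.19% of all tested genes, and 0 higher against 11.7%. With shRNA2, 4 of 8 were called lower (NOTCH1, NOTCH2, JAG2 and MAML1) against 11.4%, and 0 higher against 15.3%. These 2 comparisons share the scramble libraries. Groups did not overlap for 6 of 8 genes with shRNA1 and for 4 of 8 with shRNA2, where the shares over all tested genes were 46.8% and 40.6%. Between the shRNAs, 1 of 8 was called lower (NOTCH2) and 1 higher (NOTCH3), against 4.79% and 1.92% of all tested genes. There 3 of 8 did not overlap, against 26.4%. The median log2 fold change of the 8 genes was -0.18 with both shRNAs pooled, beside 0.03 over all tested genes.

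Transcript length moved with these values. The 3 receptors have some of the longest transcripts tested: NOTCH2 has 11389 bases, NOTCH1 9306 and NOTCH3 8666, and 136, 312 and 415 tested genes (1.11%, 2.54% and 3.38% of those with a length) were at least as long. JAG2 and MAML1 have 5817 and 5723 bases, against a median of 2658 bases over tested genes, and HES1 and NRARP have 1578 and 1770. The NRARP value is that of its GENCODE transcript, and its RefSeq span on the chromosome is 2641 bases. Across the 12295 tested genes with a length, longer genes were lower in the knockdown cells (Spearman's rho = -0.44 across genes, which are not independent replicates and share the same 9 libraries). A single knockdown library stood apart: the correlation of length with the deviation from the mean over all libraries was 0.21 in shRNA2 replicate 2, against -0.43 to -0.20 in the other 5 knockdown libraries and 0.33 to 0.52 in scramble. The smoothed trend stood at -0.15 at the length of NOTCH2, -0.12 at that of NOTCH1, -0.11 at that of NOTCH3, -0.06 at those of JAG2 and MAML1, 0.07 at that of NRARP and 0.08 at that of HES1. Each of the 5 longer genes lay below the trend at its length.

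**Figure D3:**
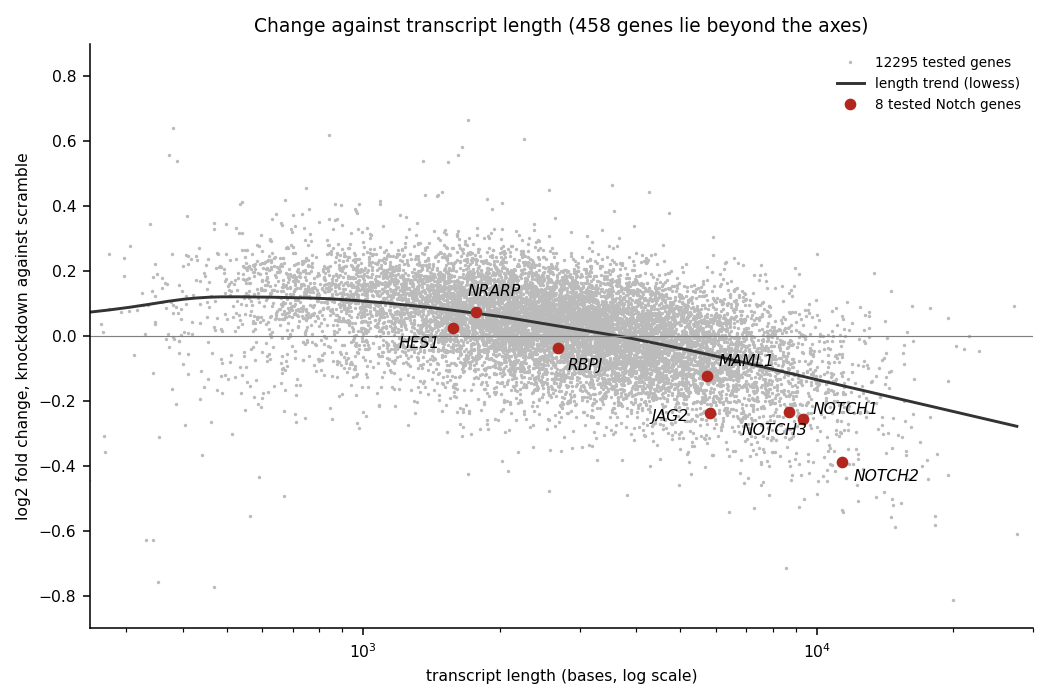
Log2 fold change of the pooled knockdown against scramble (vertical axis) against transcript length in bases (horizontal log axis) for 12295 tested genes, of which 458 lie beyond the axes. The line is the smoothed length trend and red points are the 8 tested Notch genes. The receptors lie at the long end and below the line. At the lengths of HES1 and NRARP the line is above 0, and HES1 (0.02) lies below it while NRARP (0.08) lies close to it.

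With the length trend taken out of every library, 2 of the 4 pooled calls were lost. Over all tested genes the same step took the share called in the pooled test, in either direction, from 20.6% to 12.1%. That share went from 18.8% to 12.1% with shRNA1, from 26.7% to 23.4% with shRNA2 and from 6.71% to 9.53% between the shRNAs. NOTCH1 went from -0.26 to -0.13 (limma, adjusted p = 0.0492) and JAG2 from -0.24 to -0.18 (adjusted p = 0.0200), both still called. NOTCH2 went from -0.39 to -0.23 (adjusted p = 0.113) and MAML1 from -0.12 to -0.07 (adjusted p = 0.268). With shRNA1, JAG2 was the 1 gene still called, at -0.19 (adjusted p = 0.0366), while NOTCH1 (adjusted p = 0.119), NOTCH2 (0.199) and NOTCH3 (0.0657) lost their calls. With shRNA2, NOTCH1 at -0.16 (adjusted p = 0.0191), NOTCH2 at -0.35 (0.00262) and JAG2 at -0.17 (0.0299) were still called. The difference of NOTCH2 between the shRNAs was -0.25 after this step (adjusted p = 0.0175), whereas that of NOTCH3 was no longer called (0.22, adjusted p = 0.0839). NRARP was then called lower with shRNA2 than with shRNA1 (-0.18, adjusted p = 0.0384). HES1 changed sign, from 0.02 to -0.06, and was called in neither case. The part of RNA quality or library preparation in the length trend was not tested.

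At the level of single RefSeq transcripts, the decrease of JAG2 was seen in NM_002226, the longer of its 2 entries. NM_002226 was at 13.8, 11.5 and 11.6 FPKM in scramble, at 8.97, 9.26 and 9.59 with shRNA1 and at 9.46, 9.08 and 7.91 with shRNA2. Its log2 fold change over both shRNAs was -0.40 ± 0.08 (limma over single transcripts, adjusted p = 0.0432). With shRNA1 alone it was -0.37 and not called (adjusted p = 0.103), and with shRNA2 alone -0.43 (adjusted p = 0.0487). NM_145159 was at 0.00317, 2.33 and 1.41 FPKM in scramble, from 1.73 to 2.11 with shRNA1 and from 2.05 to 3.49 with shRNA2. The share of JAG2 assigned to NM_002226 was 90.7% ± 8.55 in scramble, 82.4% ± 1.97 with shRNA1 and 77.3% ± 6.85 with shRNA2. The difference of -10.9 percentage points had p = 0.0238 in a two-sided exact permutation test and 0.0714 after adjustment over the 3 genes tested (JAG2, RBPJ and HEY1), so it was not called. Leaving out 1 library moved the difference over -14.7 to -6.26 percentage points, the latter without scramble replicate 1.

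**Figure D4:**
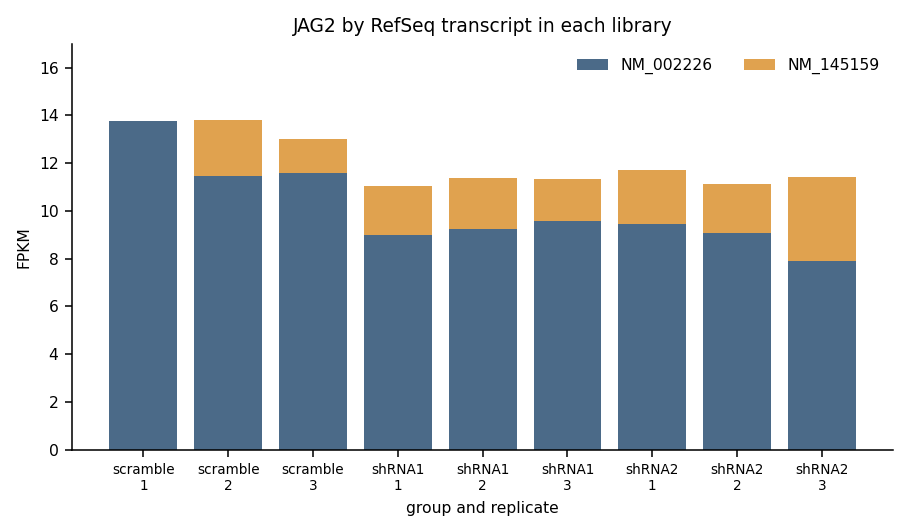
FPKM of JAG2 in each of the 9 libraries (bars from 0), split into RefSeq transcripts NM_002226 and NM_145159. The total is lower in all 6 knockdown libraries, and scramble replicate 1 has almost no FPKM (0.00317) assigned to NM_145159.

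RBPJ was spread over 9 RefSeq transcripts, 5 of them with at least 5% of the gene. The leading one, NM_001374402, held 37.7% to 46.7% of RBPJ in scramble and 29.9% to 55.1% in the knockdown libraries (exact permutation, adjusted p = 0.560). For HEY1 the share of NM_012258 ranged from 0.00285% to 99.98% among the 3 libraries of shRNA1, so its transcripts could not be told apart at this level. NOTCH2 was assigned almost wholly to NM_024408, with a scramble mean of 4.46 FPKM. NOTCH1, NOTCH3, JAG1, MAML1, HES1 and NRARP have 1 RefSeq transcript each in these files. The deposited confidence bounds of these single transcripts corresponded to between 683 and 1036 fragments per library for NOTCH1, 649 and 1150 for NOTCH3, 1575 and 2053 for MAML1, 401 and 617 for NRARP, 260 and 392 for HES1 and 158 and 225 for JAG1. These numbers cover counting error only.

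The rest of the pathway was taken from a list of 66 other Notch genes, of which 49 were tested. With both shRNAs pooled, 6 were called lower and 4 higher, where 7.10% of all tested genes were called lower and 13.5% higher. The lower genes included EP300 and CREBBP, histone acetyltransferases that the Notch complex recruits, SPEN and TLE3, corepressors, and AAK1, a kinase of endocytosis. The higher genes were PSENEN, a subunit of gamma-secretase, SNW1, a nuclear cofactor of RBPJ, and HES7 and CCND1, listed as targets. The median log2 fold change of the 49 was -0.04, beside 0.03 over all tested genes.

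Among these, EP300 went from a scramble mean of 13.5 FPKM to 9.89 with shRNA1 and 10.7 with shRNA2, a pooled log2 fold change of -0.36 ± 0.06 (limma, adjusted p = 0.00665). CREBBP changed by -0.30 ± 0.05 (adjusted p = 0.00492) and TLE3 by -0.20 ± 0.04 (adjusted p = 0.0120). EP300, CREBBP and TLE3 were called lower with each shRNA. SPEN and AAK1 were called with shRNA1 (-0.39 and -0.29) and not with shRNA2 (-0.20 and -0.13, adjusted p = 0.122 and 0.0838). The difference between the shRNAs was not called for SPEN (adjusted p = 0.252) or AAK1 (adjusted p = 0.0838). With the length trend removed, 8 of the 49 genes were called lower and 3 higher, where 12.1% of all tested genes were called in either direction. Of these calls, 6 had also been made before this step, and the rest were new. EP300, CREBBP, TLE3, SNW1 and CCND1 were still called and SPEN, AAK1, PSENEN and HES7 were not.

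The listed targets outside the 10 genes included 8 that were tested, and 2 of them were called higher with both shRNAs pooled. HES7, a repressor known from the segmentation clock, was at 5.55, 5.54 and 5.40 FPKM in scramble, at 6.69, 6.17 and 6.52 with shRNA1 and at 7.54, 6.74 and 7.94 with shRNA2. All knockdown libraries lay above scramble, with log2 fold changes of 0.20 (limma, adjusted p = 0.0402) and 0.37 (adjusted p = 0.00350). CCND1, the cell cycle regulator cyclin D1, had means of 64.7, 70.7 and 77.6 FPKM in scramble, shRNA1 and shRNA2, and was higher with shRNA2 than with shRNA1 by 0.13 ± 0.03 (adjusted p = 0.0463). MYC was called higher with shRNA1 (0.18, adjusted p = 0.0498) and CDKN1A, an inhibitor of cyclin-dependent kinases, with shRNA2 (0.19, adjusted p = 0.0108). HES4, HES6, HEYL and SOX9 were called in neither comparison.

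Of the enzymes that prepare and cut the receptors, POFUT1 differed between the shRNAs. POFUT1, which adds O-fucose to Notch receptors, was at 24.02, 23.3 and 22.9 FPKM in scramble, at 23.1, 22.8 and 21.4 with shRNA1 and at 18.4, 19.3 and 18.4 with shRNA2. The shRNA2 libraries lay under all others, and shRNA2 against shRNA1 gave -0.25 ± 0.04 (limma, adjusted p = 0.00888). ADAM10, the protease of the first cleavage, was called lower with shRNA2 (-0.29, adjusted p = 0.0120) and not with shRNA1 (-0.05), and its difference between the shRNAs was not called (adjusted p = 0.0593). PSENEN was called higher with both, at 0.16 (adjusted p = 0.0343) and 0.23 (adjusted p = 0.00680).

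**Figure D5:**
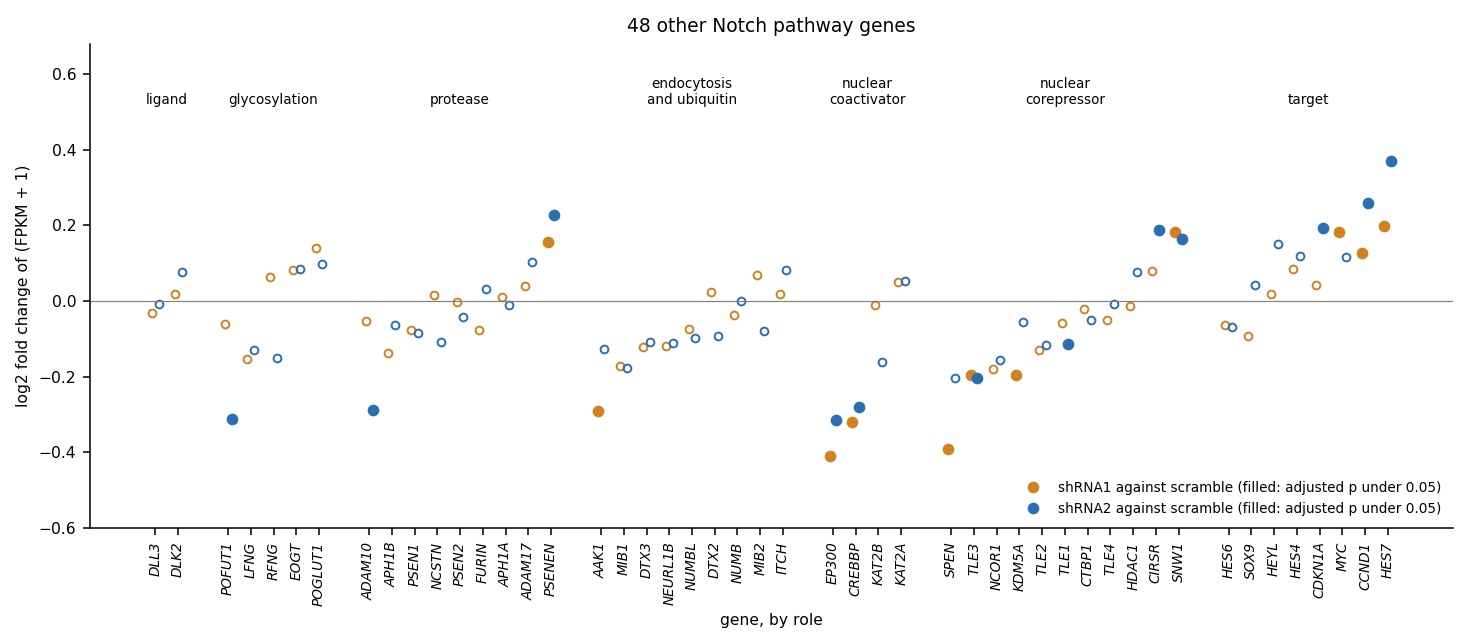
Log2 fold change of (FPKM + 1) (vertical axis) with shRNA1 and shRNA2 against scramble for 48 of the 49 other Notch pathway genes tested, grouped by role. Filled points have an adjusted p under 0.05. The acetyltransferases EP300 and CREBBP lie low with both shRNAs, and POFUT1 (-0.31) is filled with shRNA2 alone.

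Several genes outside the pathway list followed the receptors closely. Over the 9 libraries, the log2 level of NOTCH2 was most alike to those of ZNF318 (Pearson's r = 0.995), CEMIP2 (0.991) and NEO1 (0.988). NOTCH3 was most alike to KANK2 (0.970), PTGFRN (0.966) and GNA12 (0.962), and NOTCH1 to SBF1 (0.995), RIMS3 (0.990) and LRRC37A4P (0.988). These are the 3 highest coefficients among all tested genes for the 3 members whose group means spread the most. They are descriptions over 9 libraries in 3 groups, which share the group differences and the library-wide length trend. ZNF318, for example, went from 6.65 ± 0.132 FPKM in scramble to 5.51 ± 0.121 with shRNA1 and 4.81 ± 0.336 with shRNA2, an order that NOTCH2 shared.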

How the data were processed

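RNA-seq was analysed for 9 DU145 libraries in 3 groups of 3 taken from the sample labels. Per the study's methods, stranded mRNA libraries were mapped with STAR and quantified with Cufflinks by the authors, who deposited FPKM values with confidence bounds for 83497 entries (73240 RefSeq accessions) per library. The submitters' processing notes name hg38, and the coordinates in the files matched that build, although the methods name a mouse build. Versions are not given in the sources used here.

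Symbols were matched for 72645 accessions, FPKM was summed per gene, and 42 genes with a failed estimate were left out. The 12509 genes averaging 1 FPKM or more were tested on log2(FPKM + 1) with limma (version 3.58.1, R version 4.3.3), and p-values were adjusted over all of them after Benjamini and Hochberg. The pooled comparison (6 against 3 libraries) used a 2-group fit, and the single shRNAs used a fit with 3 groups. Transcript shares and FZD6 were tested by exact permutation. Lengths came from GENCODE v29 transcripts matched to RefSeq (98.3% of tested genes), and the length trend was a lowess fit with a span of 0.3. The fits were tested on simulated data. Effective fragment numbers were derived by reading each deposited bound as 2 Poisson standard deviations from the value. Coordinates and promoter sequences are those of RefSeq on GRCh38.p14.

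The genes named were the 10 members, FZD6, the pathway genes called in the pooled comparison, the 3 most alike genes for each of the 3 members with the widest range of group means, and the NOTCH2NL copies. 1 called pathway gene and some markers are not reported here. POFUT1, ADAM10, MYC, CDKN1A and the uncalled targets HES4, HES6, HEYL and SOX9 were named after their values were seen. Members, lists and tests were chosen with earlier results of these data known. Alternatives covered pseudocounts, filters, normalization, length, replicate numbers, transcript sets and single libraries.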

Additional observations from a re-analysis of the deposited data

Results flagged for a closer look

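The difference between the shRNAs was called for 2 of the 8 tested genes, beside 6.71% of all tested genes. For NOTCH2 the log2 change from shRNA1 to shRNA2 was -0.22 (limma, adjusted p = 0.0235), in 3 of 3 against 3 of 3 libraries without overlap. NOTCH3 was higher with shRNA2 by 0.24 (adjusted p = 0.0403), again without overlap, as seen for 26.4% of all tested genes. Both calls were lost when only the 6 libraries compared were fitted (limma, adjusted p = 0.0859 for NOTCH2 and 0.0626 for NOTCH3). Each was also lost without any 1 of the 3 shRNA1 libraries. FZD6 was also lower with shRNA2 (-0.25), and the part of the depth of knockdown in either difference was not tested. A search for single libraries far from the rest covered the 6 knockdown libraries and 11 genes (the 10 and FZD6). It found 0, where chance gives about 1 in 20 (0.55 of 11) if the 6 libraries form 1 group. They hold 2 shRNA groups, and a difference between these widens the range against which a single library is judged. For genes that differ between the shRNAs, the search therefore says little.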

How the results depend on the processing

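Of 676 recomputed log2 fold changes of the 8 tested genes, 604 kept direction and side of the threshold, 50 lost a call, 11 gained one and 11 changed sign, none of which was a called value. The pooled knockdown called 4 of the 8 genes, each shRNA 4 and the shRNAs against each other 2. The shares of all tested genes called in either direction were 20.6% pooled, 18.8% with shRNA1, 26.7% with shRNA2 and 6.71% between the shRNAs. The counts of the 8 genes moved as follows, with the share called over everything tested in that setting in brackets. A filter of 5 FPKM, which left the receptors untested, gave 2 pooled (29.1%), 2 with shRNA2 (35.2%) and 0 between the shRNAs (9.4%). Removing the length trend gave 2 pooled (12.1%) and 1 with shRNA1 (12.1%). With the replicate numbers as a replicate block 1 gene was called between the shRNAs (6.41%), where the call of NOTCH3 was lost (limma, adjusted p = 0.0509). The block changed no other call of the 8 genes. With replicate block and length trend removed together, 1 was called pooled (8.83%), 0 with shRNA1 (10.4%) and 1 between the shRNAs (8.33%). Testing RefSeq transcripts one by one gave 2 pooled (2.01% of all transcripts tested), 0 with shRNA1 (0.497%) and 0 between the shRNAs (0.492%). The study's criteria were an unadjusted p under 0.01 and a 1.2-fold change, applied here on this scale. They gave 1 pooled (2.89%), 2 with shRNA1 (3.60%), 2 with shRNA2 (4.72%) and 0 between the shRNAs (2.14%). Fitting only the 6 libraries compared gave 0 between the shRNAs (2.69%). Taking the pooled knockdown mean in the model with 3 groups gave 5 pooled (27.6%), with NOTCH3 added. The causes were not tested. Leaving out 1 library at a time gave 3 to 5 calls pooled, 3 to 5 with shRNA1, 3 to 4 with shRNA2 and 0 to 2 between the shRNAs. Over all tested genes these fits called 7.97% to 26.0% pooled and 7.33% to 28.3% with shRNA1. The shares were 16.8% to 33.5% with shRNA2 and 2.66% to 9.37% between the shRNAs. The pooled change of FZD6 stayed between -1.15 and -1.08. Over all tested genes the number of pooled calls ranged from 361 to 3455 over the alternatives, against 2578. No transcript share was called under any alternative (0 of 3).

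HES1 changed sign with the length trend removed, with or without the block, to -0.058 pooled and -0.021 with shRNA1. Leaving out single libraries took RBPJ with shRNA1 over values from -0.043 to 0.0032, HES1 with shRNA2 from -0.095 to 0.040 and NRARP with shRNA2 from -0.063 to 0.034. Between the shRNAs it took NOTCH1 over -0.062 to 0.010 and MAML1 over -0.035 to 0.021. Correlations of the deviations of same-numbered libraries from their group means lay between -0.07 and 0.11, so the numbers were taken as names that pair nothing. HEY1 and JAG1 lay under 1 FPKM, which limits what could be called for them.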
